A study of Mus musculus with 6 samples.

Results

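The genes described here are the cytochrome P450 (Cyp) genes of mouse skin, compared between mice under chronic restraint stress (CRS) and control mice (CON). Members were the protein-coding genes whose symbol is Cyp, a number, 1 letter and a number, with a mean of at least 0.1 FPKM (a level scaled by transcript length and library depth, so that it can be compared between genes) over the 6 libraries. Cyp51, the lanosterol demethylase of cholesterol synthesis (mean 32.2 FPKM), has no letter in its symbol and was left out. Of 93 genes with such a symbol, 55 were members, and they were 55 of the 28389 genes that reached that level. The other 38 were below it, and 5 of those were at 0 in every library. The members nearest to that level were Cyp1a2 and Cyp2j5, both at 0.111 FPKM, and the nearest genes outside were Cyp4x1 at 0.0942 FPKM and Cyp2j7 at 0.0921 FPKM.

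Whole skin was taken after 12 weeks, and RNA was sequenced in 3 CON and 3 CRS libraries. The labels number the libraries within each group and do not say whether each came from 1 mouse. The CON label says control and the CRS label names the stress. Strain, sex, age, genotype, skin site, hair cycle stage and the daily schedule of restraint are not given in the sources used here. The p-values measure the spread between these libraries within groups. Animals of a group may have shared cages or handling, and effects of that could not be told apart from those of the stress. In RNA from whole tissue, fewer cells of a type and less RNA per cell cannot be told apart.

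P450 enzymes are haem proteins of the endoplasmic reticulum or the mitochondrion that add oxygen to lipophilic molecules, with electrons passed on from NADPH by partner proteins such as Por. Families 1 to 3 are known mainly for oxidising drugs, toxicants and fatty acids, family 4 for hydroxylating the ends of fatty acid chains, and most higher-numbered families for single steps in the metabolism of steroids, retinoids, vitamin D and sterols. Skin expresses its own set of them, in keratinocytes, sebaceous glands, hair follicles and dermal cells, where they act on barrier lipids and signalling lipids as well as on foreign compounds.

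The libraries held 13289612 to 25726220 fragments by the step between low FPKM values, from which 97.7 to 98.0% of values up to 100 fragments came out whole within 0.05. The markers of basal epidermis summed to 1565 to 2243 FPKM in CON and 1999 to 2560 FPKM in CRS, with all 7 above the minimum level. CON replicate 1 stood apart: 15.3% of its fragments came from mitochondrially encoded genes, against 2.50 to 4.19% in the other 5, and its 12 skeletal muscle markers summed to 14607 FPKM, against 494 to 2861 FPKM elsewhere. Xist was at 2.80 FPKM in that library and at 0.0221 to 0.168 FPKM in the others, while the Y-linked gene Ddx3y was at 8.68 to 32.7 FPKM in all 6. CRS replicate 2 stood apart over all genes, with Pearson correlations of 0.783 to 0.906 with the other libraries across genes, and it was the highest of the 6 for 39.9% of genes of at least 1 FPKM and the lowest for 22.4%. The part of these features in the results was not tested. Values without 1 or both of these 2 libraries are given for members, for most lists and for some of the genes named from the lists. Some genes of the lists that are not named moved further than those.

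Values by library are given for the 29 members with a mean of at least 1 FPKM, an unadjusted p under 0.05 or groups that did not overlap. For 24 of these 29, RefSeq held a promoter window, and the 250 bases before the start site were searched on both strands for 4 short motifs. The letters GCGTG are the core of the xenobiotic response element, bound by the aryl hydrocarbon receptor. The hexamer AGGTCA is found in many nuclear receptor sites. The hexamer AGAACA is found in glucocorticoid receptor sites, and TATAAA is the usual promoter box of that name. The windows of Cyp1a1, 3 Cyp2b genes of 1 row on chromosome 7 and Cyp3a57 are shown because the groups did not overlap for 4 of these 5 genes, while Cyp2b19 is the Cyp2b relative whose groups did overlap. Each runs 5′ to 3′ towards the start site in RefSeq build GRCm38.p6, with every match in capitals, and no matches overlap in them. The windows lie at chr9:57697363-57697612 on the plus strand for Cyp1a1, chr7:25897408-25897657 on the plus strand for Cyp2b10, chr7:26686431-26686680 on the minus strand for Cyp2b23, chr7:26756892-26757141 on the plus strand for Cyp2b19 and chr5:145345019-145345268 on the plus strand for Cyp3a57.
Cyp1a1: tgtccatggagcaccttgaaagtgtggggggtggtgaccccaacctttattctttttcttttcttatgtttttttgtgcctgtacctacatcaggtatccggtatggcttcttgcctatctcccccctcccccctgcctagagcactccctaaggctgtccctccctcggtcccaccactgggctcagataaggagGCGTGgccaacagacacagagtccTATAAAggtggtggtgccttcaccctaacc
Cyp2b10: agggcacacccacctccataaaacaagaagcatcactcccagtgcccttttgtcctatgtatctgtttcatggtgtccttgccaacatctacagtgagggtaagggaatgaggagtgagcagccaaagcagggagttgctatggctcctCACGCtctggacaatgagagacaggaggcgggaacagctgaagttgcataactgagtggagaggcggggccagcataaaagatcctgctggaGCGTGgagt
Cyp2b23: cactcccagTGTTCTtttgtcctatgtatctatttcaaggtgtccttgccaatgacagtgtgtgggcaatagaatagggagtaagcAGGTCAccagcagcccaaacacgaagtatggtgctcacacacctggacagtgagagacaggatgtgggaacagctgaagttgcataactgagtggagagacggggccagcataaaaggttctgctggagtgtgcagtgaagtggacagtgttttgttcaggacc
Cyp2b19: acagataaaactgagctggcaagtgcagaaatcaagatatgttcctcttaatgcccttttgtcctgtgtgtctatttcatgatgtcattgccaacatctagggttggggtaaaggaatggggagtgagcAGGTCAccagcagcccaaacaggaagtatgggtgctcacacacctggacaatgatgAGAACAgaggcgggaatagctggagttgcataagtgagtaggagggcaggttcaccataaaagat
Cyp3a57: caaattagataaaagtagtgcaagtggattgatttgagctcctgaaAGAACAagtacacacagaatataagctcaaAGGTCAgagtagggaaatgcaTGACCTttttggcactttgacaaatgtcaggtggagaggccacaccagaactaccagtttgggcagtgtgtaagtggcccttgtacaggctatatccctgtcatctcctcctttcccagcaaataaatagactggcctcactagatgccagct

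The Cyp1a1 window holds 1 GCGTG that begins 54 bases before the start and a TATAAA that begins 30 bases before it. The Cyp2b10 window holds 2 matches to GCGTG, 1 on each strand, at 101 and 9 bases, and no match to the other motifs. The Cyp2b23 and Cyp2b19 windows each hold 1 AGGTCA, at 164 and 121 bases, and 1 AGAACA, at 241 bases on the reverse strand and at 65 bases on the forward strand. The Cyp2b10 window was identical to that of Cyp2b19 and to that of Cyp2b23 at 72.0% of bases in pairwise alignments, and Cyp2b19 and Cyp2b23 were identical at 66.8%. Over all 276 pairs of the 24 windows, the median was 52.0% and the range 44.4 to 72.0%.

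Of all 55 members, 45 had a RefSeq window. GCGTG was in 11 of the 45 (24.4%), against 30.9% of 27025 genes and 28.2% of 32851 windows in all. AGGTCA was in 14 (31.1%), against 15.8% of genes and 14.0% of windows. AGAACA was in 10 (22.2%), against 18.2% of genes and 16.1% of windows, and TATAAA was in 12 (26.7%), against 14.3% of genes and 12.4% of windows. A match shows only that these letters are in the window.

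No Cyp gene, and none of the 28389 genes tested (0.0%), passed an adjusted p of 0.05 in limma's moderated test on log2(FPKM + 0.1). The adjusted p was 0.9999 for every member, and voom on the recovered fragments called no gene either. At an unadjusted p under 0.05, 261 genes were higher in CRS (0.919%) and 462 lower (1.63%), and the 3 members among them were all higher (5.45% of the members). These were Cyp2b23, Cyp1a1 and Cyp2b10. Data were also simulated with normal draws, independent between genes, from each gene's mean and spread within groups. They gave calls for 0% of genes planted at a log2 change of 1, 10% at 2, 38% at 3 and 68% at 5. A change of the size measured for most members was thus not detectable in the simulation at this replication. The simulation held no library that stood apart over all genes, so that it does not give the detection rate in these data. All fold changes below are on the log2(FPKM + 0.1) scale, which understates those of low genes, and are given with the standard error of the fit.

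Members lay above 0 more often than genes in general. Of the 55, 35 had a log2 fold change above 0 (63.6%), whereas 32.2% of all genes tested did, and 44 (80%) lay above the median of all genes, which was -0.20. The members' median was 0.074, which is 0.27 above that median, and they ranged from -1.04 to 1.78. For 8 members (14.5%) every CRS library was higher than every CON library, which held for 1.65% of all genes, and for 2 members every CRS library was lower, which held for 5.19% of all genes. Among the 26 members of at least 1 FPKM, 20 were above 0, against 25.9% of the 14371 genes of that level, and 24 were above the median of all genes, against 44.7%. Of the 26, 7 did not overlap and were higher, against 1.62% of those genes, and none was lower without overlap, against 7.96%.

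These counts moved with the scaling of the libraries. Scaled by median ratios, 44 members lay above 0, with a median of 0.30, beside 50.6% of all genes and a median of 0.0064. Scaled to the library sum without mitochondrially encoded genes, 23 members lay above 0, with a median of -0.15, beside 20.01% of all genes and a median of -0.42. The number of members above the median of all genes was 44 under both. The count without overlap and higher was 11 members with median ratios, where 3.56% of all genes were so, and 3 members with the library sum, where 0.919% were. Those 3 were Cyp1a1, Cyp2b10 and Cyp2b23. Beside a count of genes above 0, the counts with median ratios and with the library sum follow below in brackets, in that order, and beside a median the same medians.

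**Figure D1:**
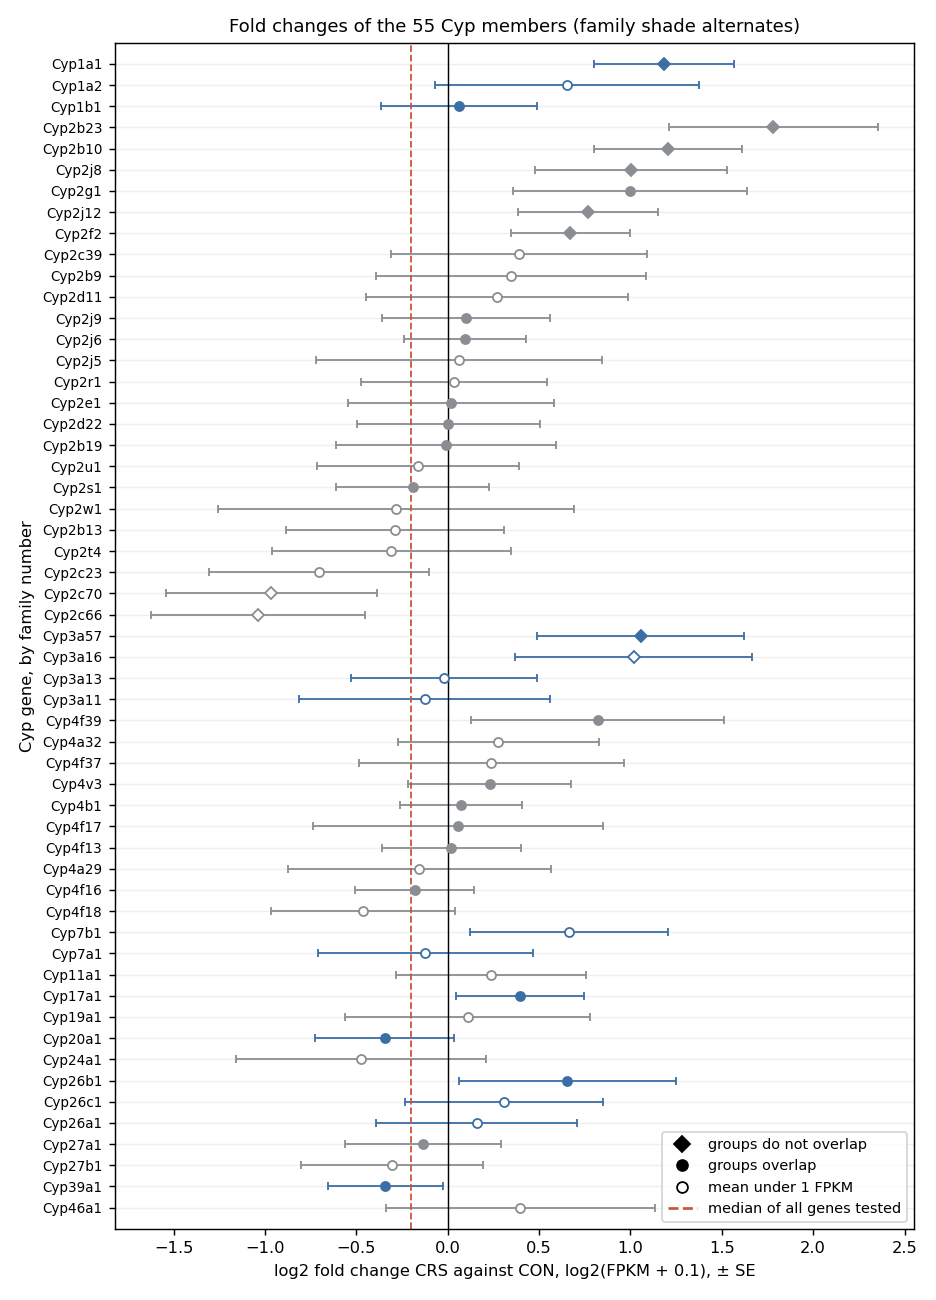
Log2 fold change of CRS against CON for each of the 55 Cyp genes (x axis, with the standard error), ordered by family number on the y axis, with diamonds where the groups did not overlap, open symbols for genes under 1 FPKM and a dashed line at the median of all genes tested. The values run from -1.04 for Cyp2c66 to 1.78 for Cyp2b23, and 44 of the 55 lie to the right of the dashed line.

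Among the enzymes of foreign compounds, family 1 had 3 members, all above 0 (3 and 2), with a median of 0.65 (0.78 and 0.47). Cyp1a1, a target of the aryl hydrocarbon receptor that oxidises polycyclic hydrocarbons, had 2.11, 1.60 and 1.08 FPKM (CON) and 3.66, 3.46 and 3.77 FPKM (CRS), in the order of the replicate numbers. The lowest CRS library was thus above the highest CON library, and the 3 CRS values lay close together. The means were 1.60 ± 0.513 FPKM for CON against 3.63 ± 0.159 FPKM for CRS, as SD over n = 3 libraries each, a log2 fold change of 1.18 ± 0.38 (limma, unadjusted p = 0.014, adjusted p = 0.9999), and the exact permutation test gave 0.1, the smallest p it allows with 3 against 3. That exact p is the same for every member whose groups did not overlap. Leaving out 1 library at a time gave 0.94 to 1.40, and leaving out CON replicate 1 and CRS replicate 2 gave 1.43. Cyp1a2, its neighbour, which is known mainly from liver, was close to the floor, with 0 to 17 fragments per library, 17 of them in CRS replicate 1. Cyp1b1, an enzyme of oestrogens and foreign compounds outside the liver, was the more abundant member at a mean of 12.9 FPKM, with 11.0, 14.8 and 10.2 FPKM (CON) and 8.66, 23.6 and 9.26 FPKM (CRS). Its values overlapped, CRS replicate 2 being the highest and CRS replicate 1 the lowest, and its log2 fold change of 0.062 ± 0.43 was -0.40 without CRS replicate 2.

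Family 2 was the largest, with 24 members, 15 of them above 0 (18 and 9), 5 without overlap and higher, and 2 without overlap and lower. For this and the other families, counts without overlap stand beside 1.65% of all genes higher and 5.19% lower. Cyp2b10, known in liver for its induction through the receptor CAR, had 3.01, 6.60 and 2.64 FPKM (CON) and 9.90, 7.29 and 9.36 FPKM (CRS). The groups did not overlap, although CON replicate 2 came near the lowest CRS value. The means were 4.08 ± 2.19 FPKM for CON against 8.85 ± 1.38 FPKM for CRS, as SD over n = 3 libraries each, a log2 fold change of 1.21 ± 0.41 (limma, unadjusted p = 0.017), with 0.96 to 1.61 when 1 library was left out. Cyp2b23, whose substrates are less well known, had 0.169, 0.573 and 0.619 FPKM (CON) and 2.40, 1.21 and 1.52 FPKM (CRS). Every CRS value was above 1 FPKM and every CON value was under it. Its log2 fold change of 1.78 ± 0.57 was the largest of the 55 (limma, unadjusted p = 0.013), from means of 0.454 ± 0.247 FPKM for CON against 1.71 ± 0.618 FPKM for CRS, as SD over n = 3 libraries each, and it rested on 7 to 25 fragments per CON library and 68 to 101 per CRS library.

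Cyp2b19, an arachidonic acid epoxygenase known from differentiating keratinocytes, shared with Cyp2f2 the highest mean of all members, 13.9 FPKM. It had 14.0, 8.15 and 14.8 FPKM (CON) and 9.72, 31.4 and 5.40 FPKM (CRS), so that CRS replicate 2 was the highest library and CRS replicate 3 the lowest. Its log2 fold change was -0.0095 ± 0.60, from -0.71 without CRS replicate 2 to 0.55 without CRS replicate 3. The 2 other Cyp2b members, Cyp2b9 and Cyp2b13, were at 0 to 15 fragments per library and both overlapped. Shared sequence differed among the Cyp2b genes. Of the 50-base stretches in their exons, 8.70% of those of Cyp2b10, 4.44% of Cyp2b23 and 1.85% of Cyp2b19 occurred in another gene. The shares were larger for Cyp2b13, at 27.3%, and Cyp2b9, at 11.2%.

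Cyp2f2, known for activating naphthalene in airway club cells, had 8.10, 14.8 and 9.70 FPKM (CON) and 20.03, 15.4 and 15.4 FPKM (CRS). Every CRS library was above every CON library, but CON replicate 2 lay just under the lowest CRS value. The log2 fold change was 0.67 ± 0.33 (limma, unadjusted p = 0.073), 8.997% of its 50-base stretches also occurred in the gene model Gm15883, and under median-ratio scaling its groups overlapped. Cyp2g1, known from the olfactory mucosa, had 3.92, 1.80 and 0.702 FPKM (CON) and 2.01, 5.78 and 3.83 FPKM (CRS). CON replicate 1 was higher than CRS replicate 1, so that the groups overlapped, and the log2 fold change of 1.00 ± 0.64 became 0.40 without CON replicate 3 and 1.57 without CON replicate 1.

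The Cyp2j enzymes make epoxides from arachidonic acid, and all 5 Cyp2j members were above 0 (5 and 2), with 2 of them without overlap. Cyp2j12 had 3.05, 3.35 and 1.63 FPKM (CON) and 4.95, 3.86 and 4.53 FPKM (CRS). All CRS libraries were higher, and CON replicate 3 was the lowest of all, with a log2 fold change of 0.77 ± 0.38 that was 0.46 without that library. Cyp2j8 had 1.29, 0.995 and 0.398 FPKM (CON) and 2.20, 1.31 and 1.78 FPKM (CRS). Here CRS replicate 2 was barely above CON replicate 1, and the log2 fold change of 1.00 ± 0.53 was 0.57 without CON replicate 3. Cyp2j6 had 4.15, 5.78 and 3.67 FPKM (CON) and 5.70, 4.46 and 4.24 FPKM (CRS) and Cyp2j9 had 1.36, 1.52 and 0.992 FPKM (CON) and 1.06, 2.14 and 1.13 FPKM (CRS). Both overlapped, with log2 fold changes of 0.095 ± 0.33 and 0.10 ± 0.46, and Cyp2j5 was near the floor with 0 to 15 fragments per library.

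Of the remaining family 2 members above 1 FPKM, Cyp2e1, the ethanol-oxidising enzyme, had 11.3, 10.4 and 3.87 FPKM (CON) and 4.99, 16.2 and 5.81 FPKM (CRS). CRS replicate 2 was the highest and CON replicate 3 the lowest, and the log2 fold change of 0.017 ± 0.57 was -0.51 without CRS replicate 2. Cyp2s1, an epithelial enzyme responsive to the aryl hydrocarbon receptor, had 5.71, 5.65 and 6.67 FPKM (CON) and 4.74, 9.31 and 3.23 FPKM (CRS). Its CRS values lay on both sides of all CON values, at -0.19 ± 0.42. Cyp2d22, of the subfamily that oxidises many amine drugs, had 1.84, 1.22 and 1.02 FPKM (CON) and 0.918, 2.34 and 1.07 FPKM (CRS). The CON values lay within the range of the CRS values, and the log2 fold change was 0.0040 ± 0.50. The 2 members without overlap and lower in CRS were both of the Cyp2c subfamily, whose enzymes oxidise drugs and arachidonic acid. Cyp2c66 had 0.299, 0.129 and 0.193 FPKM (CON) and 0.0534, 0 and 0.102 FPKM (CRS) and Cyp2c70 had 0.214, 0.203 and 0.190 FPKM (CON) and 0.131, 0 and 0.0601 FPKM (CRS). These levels amount to 0 to 11 fragments per library, CRS replicate 2 was at 0 for both, and 19.5% of the 50-base stretches of Cyp2c66 are shared with Cyp2c65. Their log2 fold changes were -1.04 ± 0.58 and -0.96 ± 0.58.

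**Figure D2:**
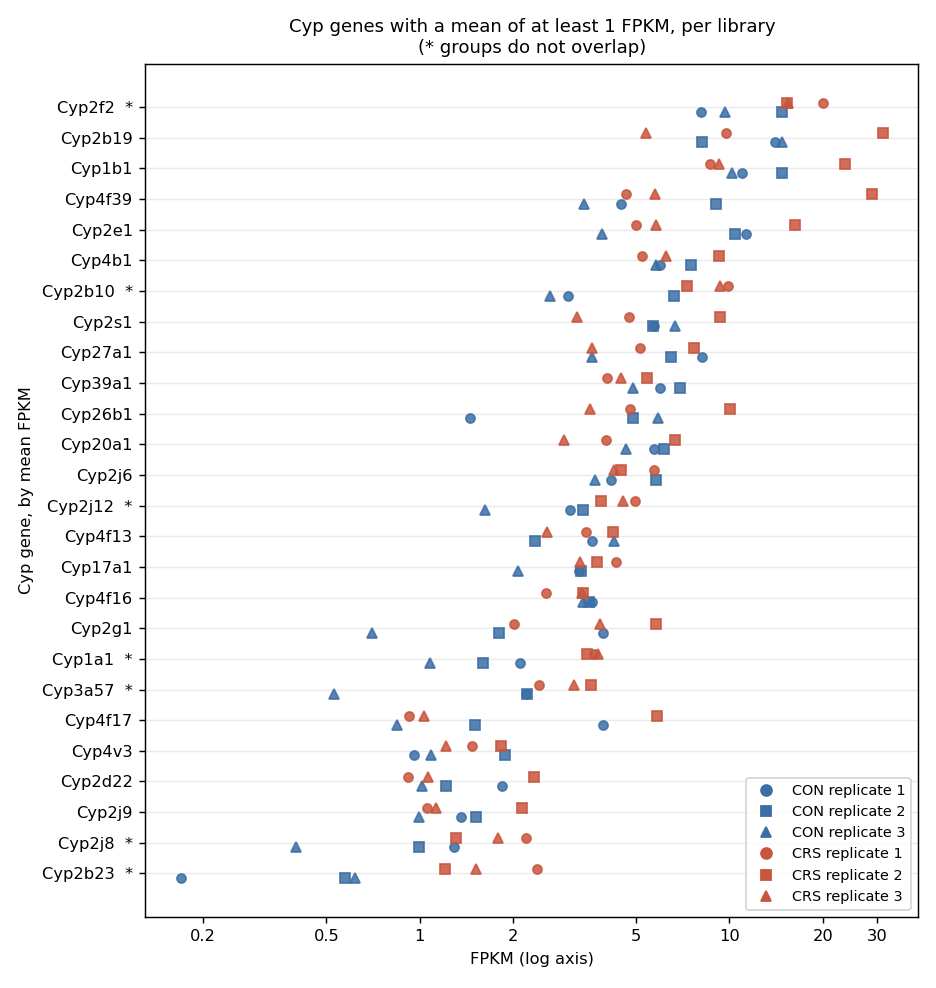
FPKM in each library (x axis, log scale) for the 26 Cyp genes whose mean reached 1 FPKM, ordered by mean level on the y axis, with CON in blue, CRS in red, the replicate number as the shape and an asterisk where the groups did not overlap. The red squares of CRS replicate 2 lie far to the right for Cyp4f39, Cyp2b19, Cyp1b1 and Cyp2e1, and the 7 marked genes have every red symbol to the right of every blue one.

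Family 3, known for oxidising steroids and drugs in liver and gut, had 4 members, 2 of them above 0 (4 and 2), both without overlap. Cyp3a57 had 2.20, 2.21 and 0.528 FPKM (CON) and 2.43, 3.57 and 3.14 FPKM (CRS). The lowest CRS value was just above the CON values of replicates 1 and 2, and CON replicate 3 was far below both. The log2 fold change was 1.06 ± 0.56 (limma, unadjusted p = 0.096), and 0.43 without CON replicate 3. Cyp3a16, known as a form of the young liver, had 0.0611, 0.406 and 0.391 FPKM (CON) and 0.421, 0.607 and 0.803 FPKM (CRS). CON replicates 2 and 3 lay just under the lowest CRS value and CON replicate 1 far below, with 2 fragments, so that the log2 fold change of 1.02 ± 0.65 was 0.47 without CON replicate 1. Of the 50-base stretches, 8.63% in Cyp3a57 and 10.7% in Cyp3a16 occur in another gene, so that a part of their reads may have been assigned to relatives. Cyp3a11 and Cyp3a13 were under 1 FPKM, at -0.13 ± 0.69 and -0.021 ± 0.51.

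Family 4 had 10 members, 7 of them above 0 (9 and 4) and none without overlap, with a median of 0.066 (0.30 and -0.17). Cyp4f39, the relative of the human enzyme that hydroxylates the very long fatty acids of acylceramides in the skin barrier, had 4.47, 9.07 and 3.39 FPKM (CON) and 4.65, 28.9 and 5.73 FPKM (CRS). CRS replicate 2 stood far above every other library, and the other 2 CRS libraries lay within the CON range. The log2 fold change of 0.82 ± 0.69 was -0.00063 without that library. Cyp4f17 had 3.91, 1.51 and 0.844 FPKM (CON) and 0.921, 5.85 and 1.03 FPKM (CRS), again highest in CRS replicate 2, with CON replicate 1 next, and a log2 fold change of 0.058 ± 0.79 that ran from -0.77 to 0.62 with 1 library left out.

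Of the other members of family 4, Cyp4b1, a hydroxylase of medium-chain fatty acids, had 5.96, 7.49 and 5.80 FPKM (CON) and 5.23, 9.27 and 6.24 FPKM (CRS). The groups overlapped and the log2 fold change was 0.074 ± 0.33. Cyp4f13 had 3.61, 2.35 and 4.25 FPKM (CON) and 3.45, 4.21 and 2.59 FPKM (CRS), with CON values on both sides of the CRS range. Cyp4f16 had 3.59, 3.51 and 3.37 FPKM (CON) and 2.55, 3.38 and 3.34 FPKM (CRS), where CRS replicate 1 was the lowest and the other 5 libraries lay between 3.34 and 3.59 FPKM. Their log2 fold changes were 0.020 ± 0.38 and -0.18 ± 0.32, and 17.4% of the 50-base stretches of Cyp4f16 occur in another gene. Cyp4v3, a fatty acid hydroxylase whose human relative is mutated in a retinal dystrophy, had 0.958, 1.88 and 1.09 FPKM (CON) and 1.47, 1.84 and 1.22 FPKM (CRS). CON replicate 2 was the highest library, and the log2 fold change was 0.23 ± 0.45. The 4 members under 1 FPKM, Cyp4a29, Cyp4a32, Cyp4f18 and Cyp4f37, were at -0.16 ± 0.72, 0.28 ± 0.55, -0.46 ± 0.50 and 0.24 ± 0.73.

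The Cyp26 enzymes break down retinoic acid, and all 3 were above 0 (3 and 2). Cyp26b1, the main one in skin at a mean of 5.10 FPKM, had 1.45, 4.89 and 5.86 FPKM (CON) and 4.76, 10.1 and 3.56 FPKM (CRS). CON replicate 1 was the lowest library and CRS replicate 2 the highest, and the other 4 lay between 3.56 and 5.86 FPKM. Its log2 fold change of 0.66 ± 0.59 was 0.051 without CON replicate 1 and -0.37 without both of these libraries. Cyp26a1 and Cyp26c1 were under 1 FPKM, at 0.16 ± 0.55 and 0.31 ± 0.54. Of the vitamin D enzymes, Cyp27b1, which makes the active hormone, had 0.678, 0.799 and 0.702 FPKM (CON) and 0.606, 0.770 and 0.385 FPKM (CRS), and Cyp24a1, which degrades it, had 0.267, 0.225 and 0.296 FPKM (CON) and 0.511, 0.0437 and 0.1003 FPKM (CRS). Both overlapped, at -0.30 ± 0.50 and -0.48 ± 0.68. Cyp2r1, which makes the circulating precursor, was at 0.036 ± 0.51.

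Among the steroid enzymes, Cyp17a1, the hydroxylase and lyase on the way to androgens, was the only member of at least 1 FPKM, with 3.27, 3.31 and 2.08 FPKM (CON) and 4.30, 3.73 and 3.30 FPKM (CRS). All CRS values but replicate 3 were above all CON values, CRS replicate 3 lying between CON replicates 1 and 2, and CON replicate 3 was the lowest. The log2 fold change was 0.40 ± 0.35, and 0.18 without CON replicate 3. Cyp11a1, which opens steroid synthesis by cutting the cholesterol side chain, had 0.308, 0.292 and 0.329 FPKM (CON) and 0.444, 0.421 and 0.297 FPKM (CRS), and its log2 fold change was 0.24 ± 0.52. Cyp19a1, the aromatase, was at 8 to 43 fragments per library and at 0.11 ± 0.67.

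Among the sterol enzymes, Cyp27a1, which hydroxylates the sterol side chain, had 8.13, 6.49 and 3.60 FPKM (CON) and 5.14, 7.69 and 3.60 FPKM (CRS). CON replicate 3 and CRS replicate 3 were both at 3.60 FPKM, and the log2 fold change was -0.14 ± 0.43. Cyp39a1, an oxysterol hydroxylase, had 5.96, 6.93 and 4.88 FPKM (CON) and 4.04, 5.44 and 4.46 FPKM (CRS). CRS values were lower on average, but the groups overlapped, at -0.34 ± 0.32. Cyp7b1, another oxysterol hydroxylase, had 0.464, 0.903 and 0.556 FPKM (CON) and 1.70, 0.628 and 1.03 FPKM (CRS), with CON replicate 2 above CRS replicate 2 and a log2 fold change of 0.66 ± 0.54. Cyp7a1 and Cyp46a1, the sterol hydroxylases of liver and brain, were at -0.12 ± 0.59 and 0.40 ± 0.74 with means of 0.123 and 0.245 FPKM. Cyp20a1, a member without a known substrate, had 5.71, 6.17 and 4.64 FPKM (CON) and 4.003, 6.68 and 2.93 FPKM (CRS). Its highest and its 2 lowest values were all in CRS, and its log2 fold change was -0.34 ± 0.38.

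The 29 members under 1 FPKM had 25 to 251 fragments over the 6 libraries together and standard errors of 0.50 to 0.97, with a median of 0.60. Those of at least 1 FPKM had 258 to 9617 fragments and standard errors of 0.32 to 0.79, with a median of 0.43, and the largest of these were those of Cyp4f17 and Cyp4f39. The 26 members outside the rule for values by library had means of 0.111 to 0.880 FPKM and log2 fold changes of -0.70 to 0.66, with 14 above 0 and 12 below. Of all 55 members, 20 shared no 50-base stretch with another gene, and 11 shared over 10%.

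The members were also compared by their place in the genome, from the order of genes in RefSeq and with no coordinates used. On chromosome 7, 13 Cyp genes stand in a row with at most 5 other genes between neighbours, and 9 of them were members. The 3 without overlap there, Cyp2b10, Cyp2b23 and Cyp2f2, were not adjacent among the Cyp genes. Between the first pair stand Cyp2b13 and Cyp2b9, with log2 fold changes of -0.29 and 0.35, and Cyp2a4, which was not a member. Between the second pair stand Cyp2b19 and Cyp2g1, and also Cyp2a5, Cyp2a22 and Cyp2a12, which were not members. On chromosome 4, 7 Cyp2j genes stand in a row, 5 of them members and all above 0, or 2 with the library sum. On chromosome 5, Cyp3a57 and Cyp3a16 are next to each other at 1 end of a row of 6 Cyp3a genes, and Cyp3a11, with -0.13, was the only other member in it. On chromosome 9, Cyp1a2, Cyp1a1 and Cyp11a1 stand together and all 3 were above 0 without rescaling. The rows of 14 Cyp2c genes on chromosome 19 and 8 Cyp4f genes on chromosome 17 held 3 and 5 members. Near relatives in a row can share reads, as given above, and no test was made of the rows.

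**Figure D3:**
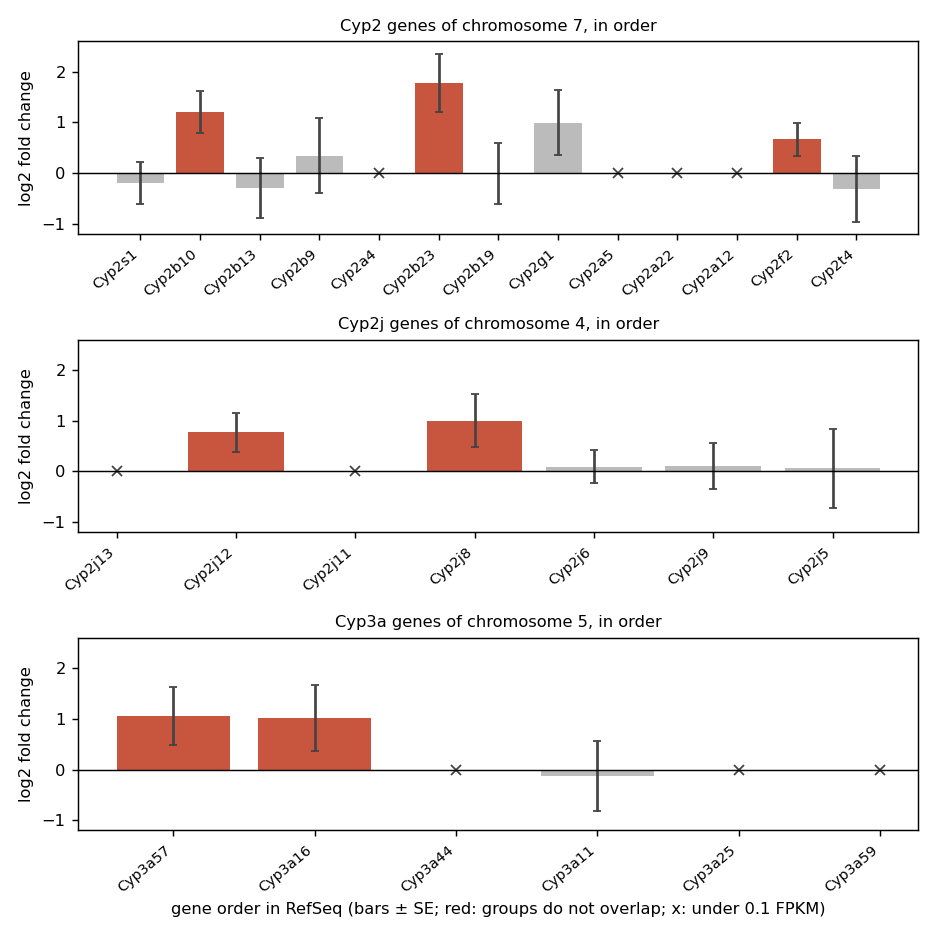
Log2 fold change of CRS against CON (y axis, bars with the standard error) for the Cyp genes of 3 rows, on chromosomes 7, 4 and 5, in their RefSeq order (x axis), with red bars where the groups did not overlap and a cross for genes under 0.1 FPKM. Cyp2b23 at 1.78 stands next to Cyp2b19 at -0.0095, whereas Cyp3a57 at 1.06 and Cyp3a16 at 1.02 stand next to each other.

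A part of the variation among members followed single libraries. Of the 26 members of at least 1 FPKM, 13 were highest in CRS replicate 2, as were 39.9% of all genes of that level, and none was lowest there. CON replicate 3, the library with the fewest fragments, was the lowest for 12 of the 26, against 5.28% of all genes of that level. The members summed to 128.1, 141.3 and 108.1 FPKM in CON and to 136.5, 226.5 and 118.5 FPKM in CRS, so that CRS replicate 2 alone lay outside the range of the CON sums. Cyp4f39, Cyp2b19 and Cyp1b1 were among those highest there. The 7 members of at least 1 FPKM without overlap did not follow that library alone: Cyp2b10, Cyp2f2, Cyp2j12, Cyp2j8 and Cyp2b23 were all lowest among the CRS libraries in replicate 2, and so was Cyp1a1, while Cyp3a57 was highest there. Of these 7, Cyp1a1, Cyp2b10, Cyp2j12, Cyp2j8 and Cyp3a57 were lowest of all in CON replicate 3, and Cyp2b23 and Cyp2f2 in CON replicate 1. Without CON replicate 3 the log2 fold changes were 0.94, 0.96, 0.46, 0.57 and 0.43, and 2.03 and 0.61, in that order. Over all 55 members, 19 were highest in CRS replicate 1, of which 6 were of at least 1 FPKM, and that library was the highest for 23.5% of all genes tested.

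Without CRS replicate 2, 28 members lay above 0, beside 38.8% of all genes, and 35 above the median of all genes. Without CON replicate 1 these were 35, beside 35.0% of all genes, and 41. Without both, 27 lay above 0, beside 37.5% of all genes, and 34 above that median. The members' median was then -0.037, which is 0.15 above the median of all genes. In that comparison of 2 against 2, 11 members did not overlap and were higher, against 10.5% of all genes, and 13 were lower, against 31.1%.

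**Figure D4:**
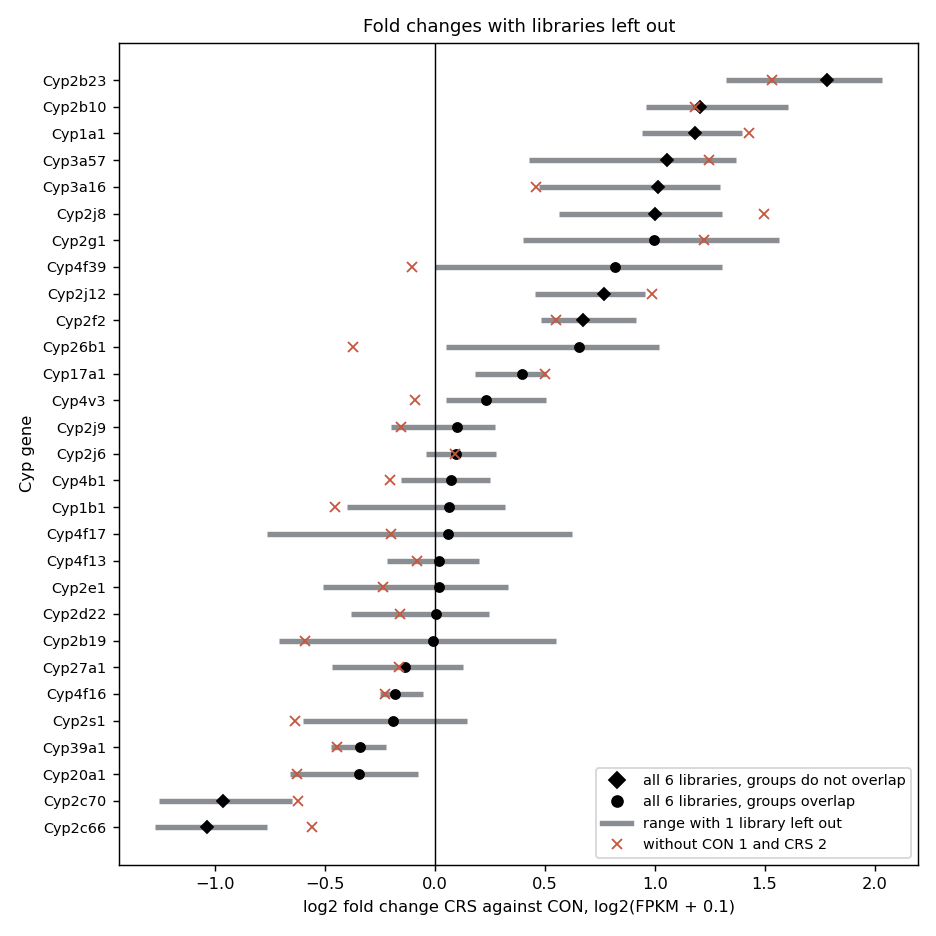
Log2 fold change of CRS against CON (x axis) for the 29 Cyp genes that met the rule for values by library (y axis), with all 6 libraries as black symbols, the range with 1 library left out as grey bars and the value without CON replicate 1 and CRS replicate 2 as crosses. Cyp2b23, Cyp2b10 and Cyp1a1 stay above 0.94 under every single omission, whereas Cyp4f39 reaches -0.00063 and Cyp26b1 reaches 0.051.

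The partners and pathways of the members were described from lists that hold no Cyp gene, each by its counts beside the 32.2% of all genes above 0 and the median of -0.20. Counts without overlap in the lists stand beside 1.65% of all genes higher and 5.19% lower. Of 13 genes tested from a list of redox partners, which also held genes of haem turnover, 4 were above 0 (9 and 1) and the median was -0.046 (0.10 and -0.29). Por, the reductase that feeds all P450 enzymes of the endoplasmic reticulum, had 10.04, 12.7 and 7.97 FPKM (CON) and 7.59, 20.1 and 8.68 FPKM (CRS). It was highest in CRS replicate 2 and overlapped, at 0.13 ± 0.42, and it was at -0.30 without that library. The 2 genes of that list with the lowest unadjusted p were Cyb5r1, a cytochrome b5 reductase, at -0.77 ± 0.45 and Hmox1, the inducible haem oxygenase, at 0.68 ± 0.36. Both overlapped. Cyb5r1 was at -0.48 without CON replicate 1, -1.15 without CRS replicate 2 and -0.86 without both, and Hmox1 was at 0.41, 0.64 and 0.37.

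Of 13 genes around the aryl hydrocarbon receptor, which acts on Cyp1a1, 8 were above 0 (12 and 6) with a median of 0.12 (0.31 and -0.12). The receptor itself, Ahr, had 3.38, 3.74 and 4.30 FPKM (CON) and 3.64, 6.09 and 2.59 FPKM (CRS) and overlapped. In this list 1 gene did not overlap and was higher, Ahrr, the repressor of the receptor, at 0.37 ± 0.54, and 1 did not overlap and was lower, Nfe2l2, the oxidative stress factor, at -0.51 ± 0.31. The targets Tiparp and Nqo1 overlapped, at -0.080 ± 0.31 and -0.10 ± 0.36. Ahr, Ahrr, Tiparp and Nqo1 were named after their values were seen. The 2 of lowest unadjusted p were Nfe2l2 and Aldh3a1, an aldehyde dehydrogenase, at 0.73 ± 0.45, which was 0.40 without CRS replicate 2.

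Of 11 nuclear receptors and regulators, 6 were above 0 (7 and 2) with a median of 0.049 (0.28 and -0.19), and all overlapped. Lowest in p were Dbp, a clock output factor, at 0.62 ± 0.55 and Ppara, the fatty acid receptor, at 0.53 ± 0.57. Without CRS replicate 2 these were 0.28 and 0.22, and without CON replicate 1 they were 0.93 and 0.55.

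Of 18 genes of steroid synthesis and conversion, 9 were above 0 (14 and 5) and 9 below, with a median of 0.00033 (0.24 and -0.22), and 1 did not overlap in each direction. Star, which carries cholesterol to Cyp11a1 in the mitochondrion, had 1.93, 2.93 and 2.34 FPKM (CON) and 4.42, 5.24 and 5.60 FPKM (CRS). Every CRS library was higher than every CON library, at 1.07 ± 0.34 (limma, unadjusted p = 0.012, adjusted p = 0.9999, exact permutation p = 0.1), and it was 0.90 without CON replicate 1 and CRS replicate 2. Hsd17b2, which inactivates oestradiol and testosterone, followed at 0.72 ± 0.39, with 0.43 without CON replicate 1 and 0.95 without CRS replicate 2.

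Of 21 retinoid genes, 6 were above 0 (13 and 2) with a median of -0.099 (0.12 and -0.35), and 1 did not overlap in each direction. The 2 of lowest p were Rxrg, a retinoid X receptor, at -1.41 ± 0.83 and Aldh1a3, a retinoic acid synthase, at -0.50 ± 0.31. Rxrg had 5.57, 0.546 and 1.08 FPKM (CON) and 0.340, 1.03 and 0.363 FPKM (CRS), so that CON replicate 1 stood far above the rest. The log2 fold change of Rxrg was -0.51 without that library and -1.85 without CRS replicate 2. Of 8 vitamin D genes, 4 were above 0 (5 and 1) with a median of -0.0038 (0.18 and -0.21). The 2 of lowest p were Trpv6, a calcium channel, at 0.71 ± 0.32, the 1 gene of the list without overlap, and Pdia3 at -0.45 ± 0.33.

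Of 22 eicosanoid genes, 13 were above 0 (16 and 7) with a median of 0.17 (0.40 and -0.081). None was higher without overlap and 2 were lower. Lowest in p were Alox8, an epidermal lipoxygenase, at 0.92 ± 0.44 and Ptges3, a chaperone and prostaglandin synthase, at -0.88 ± 0.30. Ptges3 was 1 of the 2 without overlap, and Alox8 was at 0.55 without CON replicate 1.

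All 14 acylceramide genes were above 0 (14 and 13) with a median of 0.48 (0.71 and 0.23), and 5 of them did not overlap and were higher. The 2 of lowest p were Degs2, a ceramide hydroxylase, at 1.37 ± 0.56 and Abhd5, a lipase activator, at 0.77 ± 0.32. Without CON replicate 1 and CRS replicate 2, 10 of the 14 were above 0, with a median of 0.15, and Degs2 and Abhd5 were at 0.85 and 0.48. Cyp4f39, which belongs to the same pathway, overlapped, as given above. Of 9 bile acid and oxysterol genes, 5 were above 0 (6 and 4) with a median of 0.082 (0.32 and -0.17), and 1 was higher and 2 were lower without overlap. Lowest in p were Abcg1, a sterol exporter, at 0.79 ± 0.41, which was 0.46 without CON replicate 1, and Ch25h, an oxysterol synthase, at -0.55 ± 0.52, which was lower without overlap.

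The other list medians without CON replicate 1 and CRS replicate 2 were -0.27 for the redox partner list, -0.030 for the genes around the aryl hydrocarbon receptor, -0.0016 for the regulators and -0.097 for the steroid genes. They were -0.41 for the retinoid, -0.11 for the vitamin D, -0.16 for the eicosanoid and -0.038 for the bile acid and oxysterol genes.

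Markers of several cell types in skin lay above or below 0 together, and some of them turned on CON replicate 1. Here too, counts without overlap stand beside 1.65% of all genes higher and 5.19% lower. Of 10 sebaceous gland markers, 9 were above 0 (10 and 7), with a median of 0.84 (1.08 and 0.59), and 0.96 without CON replicate 1. They summed to 183 to 357 FPKM in CON and 262 to 472 FPKM in CRS, and 3 did not overlap and were higher. All 10 suprabasal markers were above 0 (10 and 10), with a median of 0.58 (0.82 and 0.33), sums of 644 to 1603 and 1237 to 2264 FPKM, and 1 without overlap. Without CON replicate 1, 8 were above 0, with a median of 0.25. Of 14 hair shaft and inner root sheath markers, 13 were above 0 (13 and 13), with a median of 1.08 (1.33 and 0.83) and 5 higher without overlap. Their sums were 4416 FPKM in CON replicate 1, 14872 and 15414 FPKM in the other CON libraries and 17061 to 23725 FPKM in CRS, and the median without CON replicate 1 was 0.54, with 11 above 0.

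Fibroblast markers were above 0 for 9 of 10 (10 and 7), with a median of 0.55 (0.79 and 0.30), but they summed to 295 FPKM in CON replicate 1, to 1446 and 1304 FPKM in the other CON libraries and to 929 to 1351 FPKM in CRS. Without CON replicate 1, 3 of 10 were above 0, with a median of -0.048. Macrophage markers were above 0 for 9 of 9 (9 and 4), with a median of 0.22 (0.46 and -0.021), and for 4 of 9 without CON replicate 1, with a median of -0.11. Mast cell markers were above 0 for 5 of 6 (5 and 5), with a median of 0.51 (0.75 and 0.27), and 0.042 without CON replicate 1. In these 3 lists every marker overlapped. Basal epidermal markers were above 0 for 4 of 7 (5 and 2), with a median of 0.084 (0.33 and -0.17) and 1 higher without overlap. Without CRS replicate 2, 1 of these 7 was above 0, with a median of -0.23. Adipocyte markers were above 0 for 3 of 8 (4 and 1), with a median of -0.21 (0.031 and -0.45). Without CON replicate 1 and CRS replicate 2, the medians were -0.065 for basal epidermal and -0.47 for adipocyte markers.

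None of 12 skeletal muscle markers was above 0 (1 and 0), with a median of -1.98 (-1.74 and -2.23), 2 lower without overlap, and a median of -1.07 without CON replicate 1. None of 7 endothelial markers was (0 and 0), with a median of -0.79 (-0.55 and -1.03), 2 lower without overlap, and -0.23 without CON replicate 1. None of 6 melanocyte markers was (1 and 0), with a median of -0.58 (-0.35 and -0.83), 3 lower without overlap, and -0.64 without CON replicate 1. None of 8 dermal papilla markers was (1 and 0), with a median of -0.71 (-0.50 and -0.91), 2 lower without overlap, and -0.44 without CON replicate 1. Without CRS replicate 2, the medians were -2.68 for muscle, -1.22 for endothelial, -0.63 for melanocyte and -1.01 for dermal papilla markers. Without CON replicate 1 and CRS replicate 2 they were -1.74, -0.91, -0.67 and -0.82, in that order. Without both, the medians were 1.14 for sebaceous gland, 0.26 for suprabasal and 0.37 for hair markers. They were -0.048 for fibroblast, -0.17 for macrophage and -0.077 for mast cell markers. The part of these cell types in the levels of the Cyp genes was not tested.

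Markers of liver, the organ best known for P450 enzymes, were low. The 8 hepatocyte markers summed to 1.19 to 1.67 FPKM in CON and 0.769 to 2.59 FPKM in CRS, of which Alb, the serum albumin gene, had 0.587, 0.471 and 0.482 FPKM (CON) and 1.02, 0.398 and 1.02 FPKM (CRS). Of 4 adrenal cortex markers, Nr5a1, the defining factor, was near 0, with 0.0125, 0.0237 and 0 FPKM (CON) and 0.0368, 0.00917 and 0.00936 FPKM (CRS). The list summed to 2.59 to 4.04 FPKM in CON and 5.38 to 6.78 FPKM in CRS, most of it from Star, whose values are given above.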

How the data were processed

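RNA from skin was sequenced in 3 CON and 3 CRS libraries after 12 weeks. The authors deposited FPKM values per Ensembl gene in 1 file per library, per the file headers. Reads were aligned with HISAT2 to GRCm39, per the submitters' processing notes. The annotation, the counter, its use of strand and all versions are not given in the sources used here. Of 54146 gene IDs, 54079 matched GENCODE M21, which gave symbols, gene types and merged exon lengths. Since that annotation is of another build, gene coordinates are not printed, other than those of RefSeq windows with their own build. The 28389 genes that averaged 0.1 FPKM or more were tested with limma 3.58.1 in R 4.3.3 (moderated test with a trend, two-sided, no covariate) on log2(FPKM + 0.1), with Benjamini-Hochberg adjustment over all of them. Exact permutation tests were two-sided. Fragments per gene were recovered from the steps between low values of the deposited FPKM and served voom as an alternative and the depths, and these cover counting error only. Alternatives were 2 other pseudocounts, no filter or a minimum of 1 FPKM, 2 scalings, no trend, array weights, voom, a replicate block, each library left out, and 2 libraries left out together.

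The genes and lists were chosen with earlier results of these data known, and the lists support nothing on their own. Values by library follow the rule in the report. Beyond it, Cyp7b1, Cyp11a1, Cyp24a1, Cyp27b1, Ahr, Ahrr, Tiparp, Nqo1, Alb and Nr5a1 were added for their roles after values were seen. In each pathway list the 2 genes of lowest unadjusted p and Por were named. The counts without overlap under other settings and the lists without single libraries were also added after seeing the data. The fit was tested on simulated data over the 28389 genes, which gave 2 false calls beside the calls given in the report. Python 3.11.15 with Biopython 1.88 was used for sequences.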

Additional observations from a re-analysis of the deposited data

How the results depend on the processing

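No gene passed an adjusted p of 0.05 under any of the 17 alternatives in limma, voom included, so that no call could be lost. The smallest adjusted p in limma over all genes was 0.052 with array weights and 0.19 without CRS replicate 2. With array weights the adjusted p in limma was 0.090 for Cyp1a1, Cyp2b10 and Cyp2b23. The genes with an unadjusted p under 0.05 numbered 261 higher and 462 lower, and they numbered 1109 and 6525 with array weights, 218 and 338 with voom, and 707 and 4148 without CRS replicate 2. The deviations of same-numbered CON and CRS libraries had correlations of -0.12, 0.062 and 0.087, and those of differently numbered pairs ran from -0.29 to 0.30. The same-numbered values lay inside that range, and with 3 libraries per group they cannot decide whether the numbers pair the mice. With the replicate number as a block, 256 genes were higher and 370 lower, and no gene was called. In that fit 35 members lay above 0 and 44 above the median of all genes. Members above 0 numbered 35, beside 32.2% of all genes. They numbered 23 with array weights (22 of them among the 35), beside 28.3%, and 23 with the library sum (all among the 35), beside 20.01%. With a minimum of 1 FPKM, 20 of the 26 tested lay above 0, beside 25.9% of the genes of that level. In that fit 24 of the 26 lay above the median of the genes tested. The members' median of 0.074 became 0.30 with median ratios, -0.15 with the library sum and -0.10 with array weights. With 1 library left out, 28 to 42 members lay above 0, beside 31.5 to 42.9% of all genes, and 35 to 47 above the median of all genes. In these comparisons 8 to 13 did not overlap and were higher, 13 of them without CON replicate 2, where 4.41% of all genes were so. With the library sum this count was 3. Over the 6 omissions the share of all genes higher without overlap was 2.75 to 7.46%, against 1.65% with all libraries. The 8 can only grow in number when a library is left out. Relative to the median of all genes, the members' median was 0.14 to 0.42 higher over all alternatives. For single members, 59 of 490 values changed sign, and 14 of the 29 kept theirs throughout. The cause of these sign changes was not tested. With the library sum the values were -0.18 for Cyp1b1, -0.22 for Cyp2d22, -0.23 for Cyp2e1, -0.15 for Cyp2j6, -0.12 for Cyp2j9, -0.17 for Cyp4b1, -0.22 for Cyp4f13 and -0.16 for Cyp4f17. With array weights they were -0.34 for Cyp1b1, -0.24 for Cyp2d22, -0.34 for Cyp2e1, -0.033 for Cyp2j6, -0.14 for Cyp2j9, -0.050 for Cyp4b1, -0.27 for Cyp4f13, -0.55 for Cyp4f17 and -0.030 for Cyp4v3. With median ratios they were 0.23 for Cyp2b19, 0.044 for Cyp2s1, 0.054 for Cyp4f16 and 0.10 for Cyp27a1. With a pseudocount of 1, Cyp2b19 was at 0.011, and with 0.01, Cyp2d22 was at -0.00016. Without CON replicate 1 and CRS replicate 2 together, they were -0.46 for Cyp1b1, -0.16 for Cyp2d22, -0.24 for Cyp2e1, -0.16 for Cyp2j9, -0.20 for Cyp4b1, -0.080 for Cyp4f13, -0.20 for Cyp4f17, -0.10 for Cyp4f39, -0.090 for Cyp4v3 and -0.37 for Cyp26b1. With 1 library left out, Cyp1b1 ran from -0.40 to 0.32, Cyp2b19 from -0.71 to 0.55, Cyp2d22 from -0.38 to 0.25, Cyp2e1 from -0.51 to 0.33, Cyp2j6 from -0.041 to 0.28, Cyp2j9 from -0.20 to 0.27, Cyp2s1 from -0.60 to 0.15, Cyp4b1 from -0.15 to 0.25, Cyp4f13 from -0.22 to 0.20, Cyp4f17 from -0.77 to 0.62, Cyp4f39 from -0.00063 to 1.31 and Cyp27a1 from -0.47 to 0.13. The members under 1 FPKM rest on few fragments, 25 to 251 over the 6 libraries together, and some of them are at 0 in single libraries.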
